A study of Mus musculus with 20 samples.

Results

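Sorted Ter119-positive erythroblasts were compared with the other mature blood cells of the same set of arrays. The comparison takes the 2 Erythroblast arrays on one side. On the other side stands the mean, on the log2 scale and with equal weight for each population, of 7 mature populations with 2 arrays each, so that 16 of the 20 arrays of the study enter it. The 7 populations are B (B lymphocytes sorted on B220), CD4T and CD8T (T lymphocytes sorted on CD4 and on CD8), NK (natural killer cells sorted on NK1.1), NKT (cells carrying both CD3ε and NK1.1), Neutrophil (sorted on Gr-1) and Monocyte (monocytes and macrophages sorted on Mac-1). The remaining 4 arrays, of KSL cells and of LinNeg cells (negative for lineage markers), are given beside some results. They had no weight in the comparison but entered the estimate of the spread and the choice of the genes and probe sets tested. All groups share the C57BL/6 background, and the labels name no treatment, allele, age or sex. The labels call the 2 arrays of a population biological replicates. No source used here states the tissue, the animals or pools behind each array or any gate beyond the named surface marker. The p-values therefore measure the spread between these arrays, and the number of arrays, 2 a population, limits the precision. Ter119 is carried by red cell precursors from the early erythroblast to the circulating cell, so the sort can hold several stages, and a dim signal in such a bulk sample does not separate fewer cells of a type from less RNA per cell.

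Erythroblasts are the nucleated precursors of red cells. They divide a few times while they take up iron, make heme and globin and assemble a membrane skeleton, and in mammals they then condense and extrude the nucleus and clear their organelles. The transcription factors GATA1 and KLF1, which read GATA and CACC-box words in DNA, together with TAL1, LMO2 and NFE2 are known drivers of this programme, and erythropoietin acting through its receptor keeps the cells alive. Mature leukocytes share another set of genes, among them the phosphatase CD45, coronin and integrins, which serve movement, antigen receptors and defence.

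Promoter sequence is shown for 5 genes that the results turn on. It covers the 150 bases directly before the annotated start of each gene in RefSeq on build GRCm38.p6, upstream of the transcript, written 5′ to 3′ on the gene's own strand in lower case. Capitals mark GATA words in the first 4 genes, which read TTATC where the word lies on the opposite strand, and CCAAT words in the fifth. Alas2 (chrX:150547267-150547416, plus strand) makes the first enzyme of erythroid heme synthesis and Klf1 (chr8:84901832-84901981, plus strand) a master factor. Ermap (chr4:119189996-119190145, minus strand) and Kel (chr6:41704326-41704475, minus strand) make blood group proteins. Ccnb2 (chr9:70421555-70421704, minus strand) makes a cyclin of mitosis.
Alas2: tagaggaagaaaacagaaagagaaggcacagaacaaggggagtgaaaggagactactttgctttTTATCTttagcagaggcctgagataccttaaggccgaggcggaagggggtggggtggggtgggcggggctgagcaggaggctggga
Klf1: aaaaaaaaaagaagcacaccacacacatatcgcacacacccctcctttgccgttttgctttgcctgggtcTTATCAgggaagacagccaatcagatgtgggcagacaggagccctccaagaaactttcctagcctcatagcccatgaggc
Ermap: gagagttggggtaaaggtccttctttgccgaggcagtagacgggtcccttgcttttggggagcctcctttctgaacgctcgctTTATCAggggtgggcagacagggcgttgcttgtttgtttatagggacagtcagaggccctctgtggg
Kel: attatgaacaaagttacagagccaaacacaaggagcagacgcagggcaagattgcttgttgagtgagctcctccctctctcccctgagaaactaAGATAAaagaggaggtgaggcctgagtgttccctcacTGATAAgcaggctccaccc
Ccnb2: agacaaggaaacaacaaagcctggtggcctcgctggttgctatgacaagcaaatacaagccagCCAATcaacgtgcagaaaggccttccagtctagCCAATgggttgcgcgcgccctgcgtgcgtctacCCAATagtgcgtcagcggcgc

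A GATA word here is GATA with A or T before it and A or G after it. The words AGATAA and, with the other first letter, TGATAA were searched on both strands. So were those ending in G, spelled AGATAG and, with the other first letter, TGATAG. Among all 32851 promoter windows (27025 genes) of 250 bases before a start, 26.5% held at least 1 of them. The share was 31.2% (10 of 32 windows, of 22 genes matched by symbol) for the listed membrane and blood group genes, 24.0% (6 of 25, of 15 genes) for the erythroid transcription factors and 17.6% (3 of 17, of 14 genes) for the heme genes, beside 28.9% (11 of 38) for the pan-leukocyte genes. CCNCNCCC, a relaxed CACC-box word, was in 45.9% of all windows, in 68.8% (22 of 32) of those of the membrane genes and in 65.8% (25 of 38) of those of pan-leukocyte genes, which were low in Erythroblast. CCAAT was in 33.8% of all windows and in 80.0% (20 of 25, of 24 genes) of those of mitosis genes. The word TTTGAA, the core of the cell cycle homology region, was in 15.99% of all windows and in 36.0% (9 of 25) of those of mitosis genes. The share of CCAAT was 60.6% (20 of 33) for DNA replication genes and 28.9% (11 of 38) for pan-leukocyte genes. Alas2, Klf1, Ermap and Kel all hold a GATA word, which most windows of their lists do not. In the printed stretches the GATA word of Alas2 lies 86 to 81 bases before the start, that of Klf1 80 to 75 and that of Ermap 67 to 62. Kel has words at 56 to 51 and at 19 to 14, and the CCAAT words of Ccnb2 begin 87, 54 and 21 bases before the start. A word in these windows is a description of the letters and not a bound site, and the windows of 1 gene can overlap.

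The Erythroblast label was checked against defining genes first. Values are probe set intensities on a scale on which the mean of each array without its extremes is 100. Alas2 read 10792 and 8033 in the 2 Erythroblast arrays and 0.759 to 97.1 (median 25.2) in the 14 other arrays. Slc4a1, the anion exchanger band 3, read 9866 and 7598 against 1.01 to 162 (median 10.9). Ptprc, which encodes the leukocyte antigen CD45, read 1.02 and 2.67 against 3893 to 6723 (median 5755). No array of the other side came near an Erythroblast array for any of the 3 genes. The summed intensity of 7 measured erythroid markers was 49529 and 38789 in Erythroblast and 215 to 718 in the 14 arrays, and that of 4 leukocyte markers was 9.91 and 16.7 against 14307 to 22329. Of the 4 leukocyte markers all were called lower by the test given further on; without probe sets marked for several transcripts 1 of them was called higher. T cell markers summed to 220 and 311 (82.4 to 15593 in the 14 arrays; 6 of 9 called lower and 1 higher, where 28.4% of all genes tested were lower and 17.5% higher), B cell markers to 202 and 190.1 (142 to 31896; 5 of 9 lower) and NK cell markers to 211 and 117 (150.4 to 17895; 7 of 9 lower, and 4 without probe sets marked for several transcripts). Neutrophil markers summed to 326 and 197 (134 to 105578; 8 of 10 lower) and monocyte markers to 222 and 246 (434 to 29403; 9 of 9 lower). The low ends of these ranges come from arrays sorted for other lineages. Some comparison arrays carried another lineage's markers: the highest monocyte marker sum was in NK, at 29403 against 18552 and 23852 in Monocyte, NK also read 18465 and 14172 for neutrophil markers, and Monocyte read 91161 and 77336 for them. Their part in the results was not tested. The T cell marker called higher was Cd8a, on a probe set marked by its name for several transcripts; it was not called without replicate 2 of Erythroblast, and 2 other probe sets of Cd8a were called lower. Markers of the macrophages that hold erythroblasts in marrow islands summed to 210.3 and 149.7 (129.7 to 3528 in the 14, the highest in NK; 7 of 9 lower, and 3 of 9 without replicate 2 of Erythroblast), with C1qa at 6.63 and 6.50 and Adgre1 at 38.2 and 60.7. Plasma cell markers summed to 386 and 413 (719 to 3637; 3 of 8 lower), progenitor markers to 195 and 250.1 (387 to 1094; 2 of 10 lower, and 0 without marked probe sets) and mast cell and basophil markers to 62.6 and 62.6 (46.9 to 4753; 2 of 7 lower, and 1 when either Erythroblast array or any of 9 other single arrays was left out). These last 2 counts are near or under the share of all genes. Megakaryocyte and platelet markers summed to 597 and 523 (184 to 654; 3 of 8 higher and 1 lower, 2 lower without replicate 1 of Erythroblast or without CD8T in the mean, and 5 higher after quantile normalization). Among these the platelet glycoprotein gene Gp9 read 199.6 and 246 against 1.49 to 65.8 and the von Willebrand factor gene Vwf 136 and 83.9 against 0.55 to 40.6, while Pf4 read 22.2 and 12.4 against 7.54 to 205 and Itgb3 1.44 and 7.79 against 81.5 to 504. The part of such cells in the results was not tested.

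**Figure D1:**
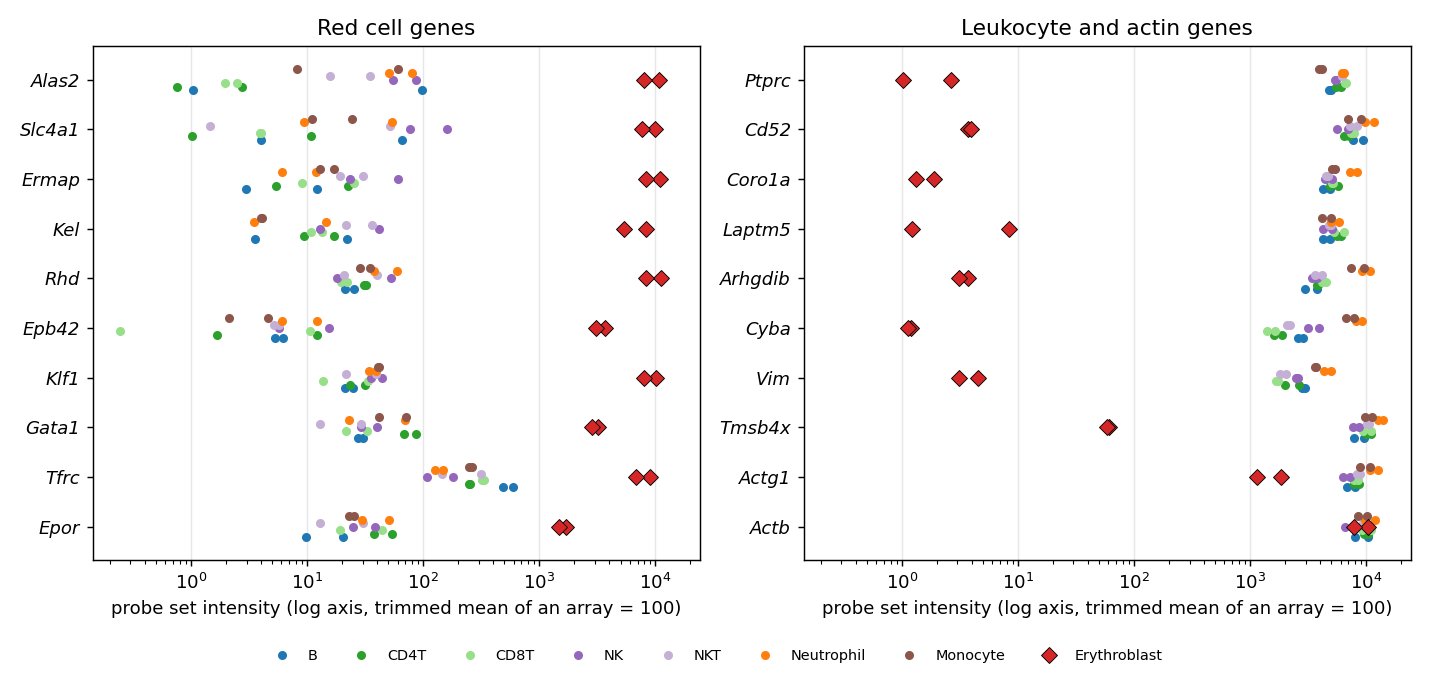
Intensity in each of 16 arrays (log axis) for 10 red cell genes and 10 leukocyte or actin genes; diamonds are the 2 Erythroblast arrays and circles the 14 arrays of the other mature populations, coloured by population. The red cell genes of the left panel are higher in both Erythroblast arrays than in all 14 others, and in the right panel only the actin gene Actb overlaps between the groups.

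The Erythroblast arrays also differed from the others as arrays. Their upper quartile of intensity was 65.8 to 66.2 against 74.5 to 98.6, and 19.5% to 19.8% of their probe sets lay above 100 against 21.3% to 24.8%. For the control transcript of Gapdh, the 3′ probe set was 5.86 to 6.10 times as bright as the 5′ one (2.36 to 5.71 times in the 14), and for that of Actb 2.23 to 2.73 times (1.34 to 2.61). The upper quartile, the share above 100 and the Gapdh ratio separated the groups, while the Actb ratio overlapped. The part of these measures in the results was not tested. Across the 14044 genes tested the 2 Erythroblast arrays correlated at r = 0.953. Against the 14 arrays they correlated at 0.507 to 0.603, and the highest value with any other array was 0.708, with LinNeg. These are correlations across genes, which are not independent replicates.

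Red cell, heme and cell division genes were higher in erythroblasts than in the mean of the other mature cells, and shared leukocyte genes were lower, within differences that touched a large part of the genes tested. A gene was called when its Benjamini-Hochberg adjusted p in limma was under 0.05 and its log2 difference at least 1. Of the 14044 genes, 6459 (46.0%) were called: 2464 (17.5%) were higher in Erythroblast and 3995 (28.4%) lower. Counts of list members given below are to be read against these shares. In 2058 genes (14.7%) the call was higher and both Erythroblast arrays lay above all 14 others, and in 2350 (16.7%) it was lower and both lay below all 14. The median log2 difference of all genes was -0.13, and it was 0.03 after quantile normalization, so small differences of whole lists are read against it. There were 120 genes with a log2 difference of at least 5 and 179 with one of at most -5. Against single populations 6297 genes (44.8%) were called for B, 6443 (45.9%) for CD4T, 6438 (45.8%) for CD8T, 6624 (47.2%) for NK, 6497 (46.3%) for NKT, 6233 (44.4%) for Neutrophil and 5787 (41.2%) for Monocyte. All 7 comparisons share the Erythroblast arrays. A test against a log2 difference of 1 rather than 0 (limma's treat) called 4026 genes. Each gene was read from 1 probe set, and where the suffix of its name (_x_at, _s_at or _a_at) marks probes that can bind several transcripts, related genes can add to the signal; calls that change when such probe sets are left out are given for many of the genes and lists described.

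The genes with the largest positive differences included those of the red cell surface and its heme supply. The 15 largest were Cldn13, Ermap, Alas2, Kel, Slc4a1, Tspan33, Nxpe2, Apol8, Hemgn, Aldh1a1, Trim10, Epb42, Myh10, Rhd and Slc38a5, with a log2 difference of 8.91 at the top and 8.03 in Rhd. Cldn13, which encodes a claudin, read 8977 and 6313 in Erythroblast and 0.929 to 41.9 (median 7.76) in the others. Its log2 difference was 8.91 ± 0.60, where the error is the standard error of the fit (adjusted p = 1.13e-10). Apol8, an apolipoprotein L gene, read 4998 and 4253 against 2.24 to 61.9 (median 5.08). Hemgn, which encodes the nuclear protein hemogen of blood precursors, read 10959 and 8336 against 1.94 to 211 (median 21.1). The retinal dehydrogenase gene Aldh1a1 read 3749 and 3402 against 0.26 to 19.4 (median 3.31). Myh10, the gene of a non-muscle myosin heavy chain, read 3409.6 and 3002 against 1.01 to 20.4 (median 4.09), the reverse of its relative Myh9, which read 1069.6 and 913 against 3013 to 7340.2 (median 5067). The amino acid transporter gene Slc38a5 read 3139 and 2712 against 2.39 to 10.6 (median 4.03). In all of these except Myh9 the lower Erythroblast array stood far above the highest of the 14.

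Among 30 listed genes of the red cell membrane and the blood groups, 25 of the 26 tested were higher in Erythroblast and none was lower, against 17.5% and 28.4% of all genes tested. All 25 had both Erythroblast arrays above the 14 others, and the median log2 difference was 4.97. Of the 30, 3 were not analysed here and Bcam (34.1 and 1.24 in Erythroblast) did not pass the filter. The anchoring skeleton beneath the membrane was represented by ankyrin, Ank1, at 8219 and 6196 against 26.03 to 74.7 (median 49.96), with a log2 difference of 7.02 ± 0.34 (adjusted p = 7.17e-13). Sptb, the gene of the erythroid β-spectrin, read 903 and 653 against 5.51 to 46.2 (median 33.1). Epb42, which encodes protein 4.2, read 3671 and 3099.8 against 0.246 to 15.4 (median 5.68), with a difference of 8.05 ± 0.38. The adducin genes Add1 and Add2 had differences of 2.24 ± 0.13 and 4.66 ± 0.27. Of the blood group genes, Ermap (the Scianna antigen) read 10978 and 8264 against 2.96 to 60.7 (median 14.95), Kel read 8288 and 5393 against 3.46 to 41.3 (median 13.2) and Rhd read 11052 and 8328 against 18.2 to 58.99 (median 29.5). Rhag, whose product carries Rh to the surface, read 2981 and 2580.2 against 1.67 to 28.8 (median 9.58). The adhesion molecule gene Icam4, of the Landsteiner-Wiener group, had a difference of 7.01 ± 0.36, and the Duffy receptor gene Ackr1 one of 4.77 ± 0.27. The water channel gene Aqp1 read 5798 and 5258 against 4.48 to 37.1 (median 18.4). The urea transporter gene Slc14a1, of the Kidd group, read 2121 and 1851 against 1.74 to 335 (median 114). Cd47, whose product restrains uptake by macrophages, was already bright in the leukocytes, with 7679 and 5868 against 1075 to 2189.96 (median 1449), and still did not overlap. The member not called was the mechanosensitive channel gene Piezo1, at 386 and 421 against 102 to 465 (median 296).

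Heme synthesis was represented along nearly its whole length. Of 15 genes tested, 12 were higher and 2 lower, and the median log2 difference was 4.11. The other 2 of the 17 listed were not analysed here. Alas2 had a log2 difference of 8.42 ± 0.64 (adjusted p = 7.33e-10). Alas1, the isoenzyme that other tissues use for the same first step, went the other way, with 50.96 and 55.6 in Erythroblast against 95.2 to 1608 (median 177) and a difference of -2.28 ± 0.17. Alad, the next enzyme, read 6591 and 6322 against 2.90 to 248 (median 158). Uros read 4818 and 3586 against 66.4 to 243 (median 125) and Urod 13082 and 10191 against 243 to 848 (median 682). Of the last 3 steps, Cpox read 677 and 874 against 5.93 to 74.2 (median 54.3), Ppox 3779.8 and 2269 against 107 to 300.4 (median 148) and Fech, the gene of ferrochelatase, 13389 and 9142 against 129.8 to 263 (median 189). All 7 of these enzyme genes from Alas2 to Fech had both Erythroblast arrays above the 14 others. The genes of mitochondrial carriers needed for heme were high as well, Slc25a38 with a difference of 4.02 ± 0.18, Tmem14c with 3.51 ± 0.16 and Abcb10 with 5.35 ± 0.33. Flvcr1, which encodes a heme exporter of the cell surface, was the second gene that was lower, at 35.3 and 31.7 against 167 to 897 (median 418) (-3.45 ± 0.14). Clpx, a mitochondrial unfoldase gene, read 85.2 and 178 against 45.99 to 134 (median 89.99) and was not called, though without replicate 1 of Erythroblast it was (1.04).

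Iron handling was more mixed, with 11 of 17 tested members (64.7%) higher and 2 (11.8%) lower and a median log2 difference of 1.77. Of all genes 17.5% were higher and 28.4% lower. Tfrc, the transferrin receptor, read 8881 and 6747 against 108 to 595 (median 249.5), a difference of 4.97 ± 0.21. Slc25a37, the gene of mitoferrin-1, which brings iron into mitochondria, read 10434 and 7429 against 109.6 to 389 (median 219.7). Slc25a28, which encodes its relative mitoferrin-2, read 86.7 and 137 against 227 to 381 (median 303), so the paralogues had differences of 5.32 ± 0.17 and -1.36 ± 0.16; the second was -0.996 after quantile normalization and missed the threshold. Glrx5, of iron-sulphur cluster assembly, read 12183 and 8641 against 107 to 896 (median 625). The ferritin heavy chain gene Fth1 was bright in every array and still higher in Erythroblast, at 12558 and 9447 against 2787 to 7764 (median 3984). Slc40a1, the iron exporter ferroportin, read 1338 and 1344 against 1.14 to 3282 (median 118): it was called higher than the mean (3.26 ± 0.52) but overlapped with the others. Hfe was called lower (-1.37 ± 0.33), also with overlap, at 18.96 and 26.2 against 4.50 to 2830.3 (median 26.5); without NK in the mean its difference was -0.51 and it was not called. The iron-sensing genes Aco1 and Ireb2 were not called (-0.43 ± 0.18 and 0.24 ± 0.19).

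**Figure D2:**
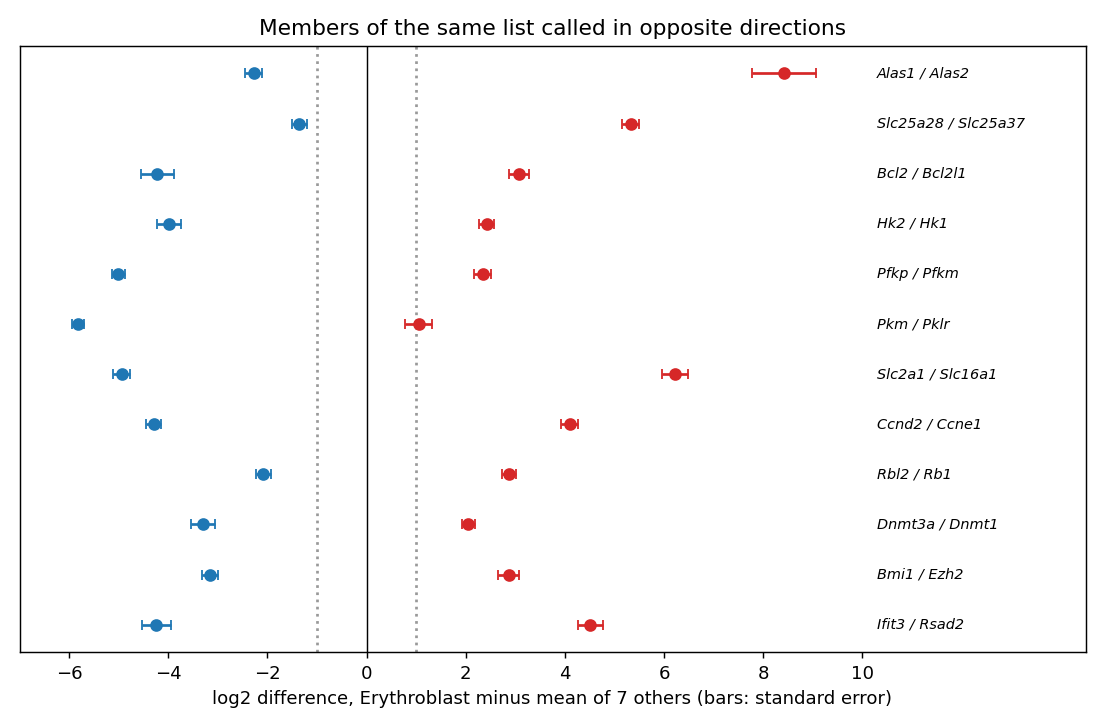
Log2 difference between Erythroblast and the mean of the 7 other populations (points) with its standard error (bars) for 12 pairs of genes from the same list called in opposite directions; dotted lines mark differences of -1 and 1. Alas2 and Alas1 lie at 8.42 and -2.28, and the mitoferrin genes Slc25a37 and Slc25a28 at 5.32 and -1.36.

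The transcription factors of the erythroid programme were mostly high. Of 17 listed, all were tested, 12 were higher and 1 lower, and the median log2 difference was 3.90. Klf1 read 10148 and 7915 against 13.7 to 43.9 (median 33.6) (7.91 ± 0.36, adjusted p = 4.03e-13). Gata1 read 3191 and 2817 against 12.99 to 86.9 (median 31.3), and its co-factor gene Zfpm1 had a difference of 4.66 ± 0.22. Tal1 read 3773 and 2909.6 against 0.735 to 34.9 (median 13.9) and Lmo2 5649.6 and 4372 against 4.74 to 986 (median 512). Gfi1b, a repressor gene of red cell and platelet precursors, read 1072 and 1017 against 2.89 to 28.4 (median 15.1). Sox6, involved in silencing embryonic globin, read 2229 and 1536 against 2.75 to 37.3 (median 14.5). Nfe2, whose product drives globin and platelet genes, read 5955 and 3941 in Erythroblast with a median of 13.3 in the others, of which the brightest, at 3481, came close without overlapping. Bcl11a, another globin regulator, was called (1.38 ± 0.25) with overlap, at 137 and 167 against 3.11 to 1078 (median 55.9); it was not called without CD8T in the mean (0.95), and on probe sets without that mark its difference was -0.59. Foxo3 and Klf3 had smaller differences, 1.52 ± 0.16 and 1.51 ± 0.15. The factor that was lower was Myb, measured on a probe set marked for several transcripts and known for keeping progenitors dividing, with 41.6 and 38.4 in Erythroblast, 112 to 709.8 (median 419) in the 14 and a mean of 2554 in LinNeg; without such probe sets 0 factors were called lower. Gata2, which GATA1 is known to replace as red cells form, was near the others in Erythroblast at 45.96 and 64.003 and not called, with a LinNeg mean of 367. Ldb1 was not called either. Nfia was not called (0.52 ± 0.31), but it was at 2.01 on probe sets not marked for several transcripts and at 1.27 with the pseudocount at the 50th percentile. Zbtb7a lay above the 14 arrays at a difference of 0.90 ± 0.20, which passed the threshold without replicate 2 of Erythroblast (1.12).

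Globin genes could be read only in part. The copies of a globin gene are nearly identical, and probe sets that carry several gene symbols were not assigned to a gene. A dim reading from a probe set with a single symbol therefore does not give the whole signal of a globin gene. Of 11 listed members 6 had a probe set with their symbol alone, and 5 were tested. Hbb-b2 read 3738 and 4338 against 0.399 to 34.97 (median 10.3), a difference of 7.98 ± 0.52, on a probe set marked for several transcripts. A second probe set of Hbb-b2 read 3.51 and 2.24 against 8.57 to 50.5, so the gene's own level stays uncertain. The embryonic genes Hbb-y and Hbb-bh1 were dim but above all 14 arrays, with 91.03 and 52.6 against 0.427 to 8.69 and 58.2 and 39.6 against 1.47 to 22.3. Probe sets carrying only Hba-a1 or only Hba-a2 read 12.2 and 49.4 and 36.2 and 52.7 and were not called; without replicate 1 of Erythroblast both were, at 1.66 and 1.14. Without the probe sets marked for several transcripts, 0 globin members were called higher and 1 lower; without replicate 1 of Erythroblast, and after quantile normalization, 5 were called higher.

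Enzymes and protective proteins of the red cell were higher in 17 of 19 tested members and lower in 0, with a median log2 difference of 4.05, and all 17 were above the 14 arrays. The carbonic anhydrase genes led them. Car2 read 13259 and 10341 against 30.4 to 1156 (median 72.5) and Car1 2243 and 3267 against 1.73 to 31.1 (median 13.8), with a LinNeg mean of 5484 for Car1. Bpgm, which makes the 2,3-bisphosphoglycerate that loosens oxygen from haemoglobin, read 4766 and 2893 against 64.8 to 223 (median 108). Blvrb, a biliverdin reductase gene, read 7367 and 6197 against 2.50 to 555 (median 58.7). The peroxide-removing enzymes were high together, with differences of 3.91 ± 0.14 for Prdx2, 2.62 ± 0.13 for Gpx1 and 1.93 ± 0.13 for Cat. Gclm and Gclc, the subunits of the first enzyme of glutathione synthesis, had differences of 5.18 ± 0.23 and 4.19 ± 0.16. Gsr, whose product regenerates glutathione, was not called, at 122 and 185 against 8.02 to 1043 (median 61.4), nor was the adenylate kinase gene Ak1 (0.32 ± 0.31), which was called at 1.08 on a probe set not marked for several transcripts.

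Genes linked to the last steps of red cell formation were also higher, in 19 of 20 tested members with none lower and a median log2 difference of 2.97. Trim10, a ubiquitin ligase gene, read 9563 and 7087 against 7.78 to 70.6 (median 18.1). Tspo2, a relative of the mitochondrial translocator protein, read 5107 and 3619 against 3.62 to 29.7 (median 10.4). Ube2o and Ube2h, whose ubiquitin-conjugating products act in clearing proteins from the maturing cell, had differences of 4.40 ± 0.36 and 2.44 ± 0.13. Xpo7, an exportin gene tied to nuclear condensation, read 10167 and 7903 against 741 to 1929 (median 1528). Dyrk3 read 1515 and 1093 against 2.01 to 48.2 (median 7.45), and Ypel4 599 and 607 against 0.665 to 17.7 (median 7.11). Tent5c, a poly(A) polymerase gene, read 9343 and 6716 against 21.3 to 1986 (median 232). Of the autophagy genes, Ulk1 had a difference of 2.65 ± 0.20, Gabarapl2 1.49 ± 0.13 and Map1lc3b 1.11 ± 0.11, which was 0.76 and not called after quantile normalization. The other 5 listed members were not analysed here. Kat2b (0.89 ± 0.13) lay above the 14 arrays but under the log2 threshold, which it passed without replicate 1 of Erythroblast (1.04).

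**Figure D3:**
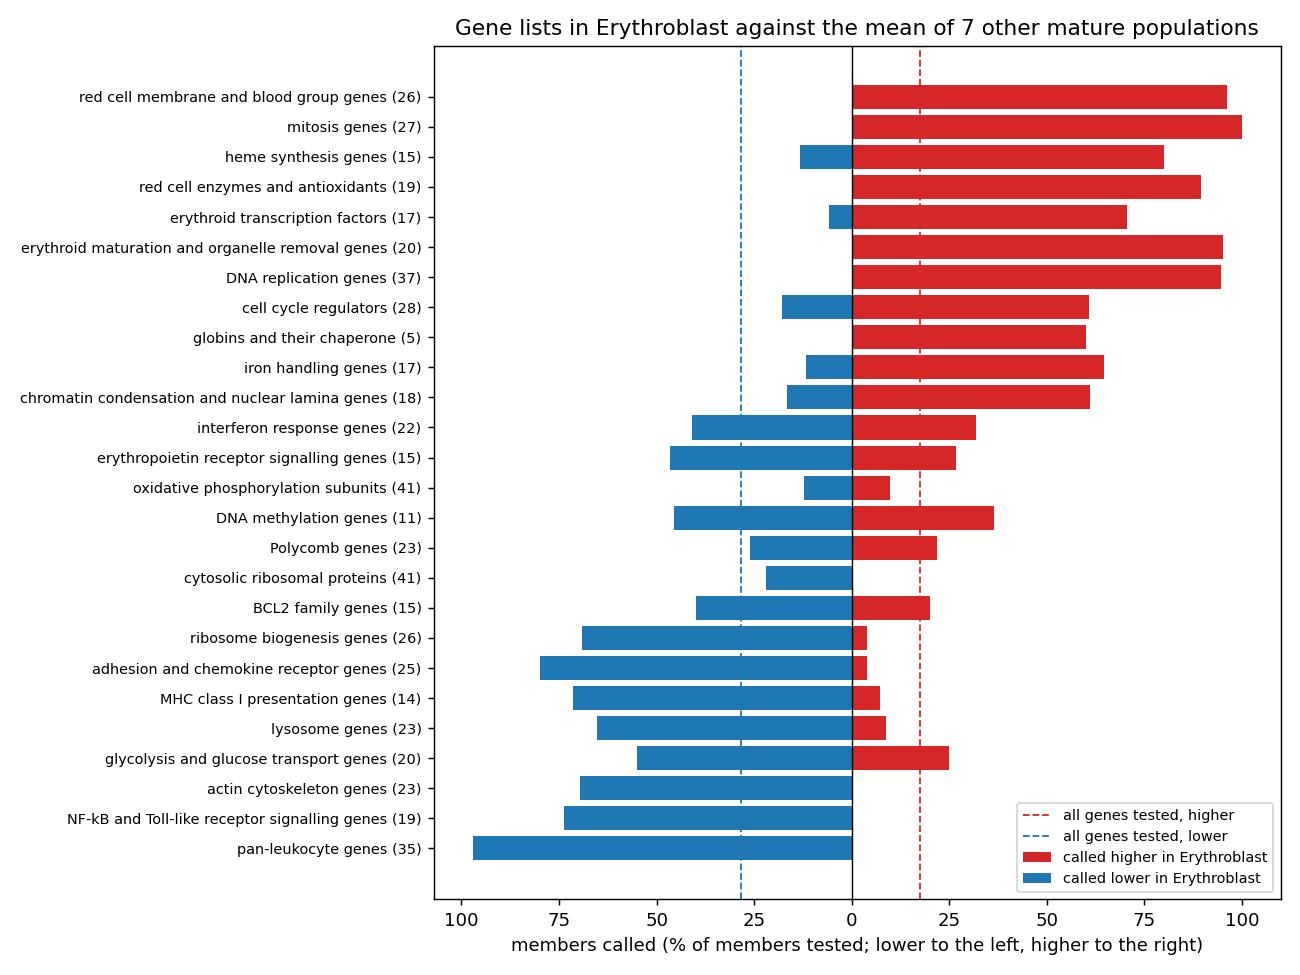
Share of the tested members of 26 gene lists called higher (right) or lower (left) in Erythroblast, with the number tested in brackets and dashed lines at the shares of all genes tested, 17.5% and 28.4%; lists are ordered by their median log2 difference. Membrane genes (25 of 26 higher) and mitosis genes (27 of 27) lie at the top, and pan-leukocyte genes (34 of 35 lower) at the bottom.

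Genes of cell division were higher in erythroblasts than in the other mature populations. All 27 tested mitosis genes were higher, with a median log2 difference of 4.43, and in all 27 both Erythroblast arrays lay above the 14 others. Of 37 tested DNA replication genes 35 were higher and 0 lower, 33 of them above all 14 arrays, with a median of 2.59. Cdk1, the kinase of mitotic entry, read 5617 and 4954 against 39.3 to 1095 (median 106) (5.16 ± 0.20, adjusted p = 2.45e-14). Ccnb2 read 7464 and 6219 against 58.8 to 1356 (median 174). Ube2c, which helps destroy cyclins at anaphase, read 9071 and 6505 against 11.4 to 793 (median 90.3). The kinetochore gene Cenpf read 5523 and 4619 against 24.8 to 505 (median 88.9), the motor gene Kif11 2372 and 2302 against 16.6 to 312 (median 55.9) and the widely used marker Mki67 10965 and 8279.7 against 66.9 to 3757 (median 468). The highest values among the 14 stood well above their median for these genes. The mean log2 level over the mitosis list was 11.4 in Erythroblast, 9.17 in Monocyte, 7.96 in Neutrophil and 5.67 to 7.04 in the 5 lymphocyte populations. It was 8.93 in LinNeg and 8.46 in KSL.

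Among replication genes, Cdc6, which loads the replicative helicase, read 2166 and 2562 against 5.24 to 422 (median 47.4), and the helicase gene Mcm2 3878 and 4078 against 84.9 to 632 (median 319). Rrm2, a subunit of the enzyme that makes deoxynucleotides, read 10209.8 and 8797 against 102 to 3217 (median 426), and the thymidine kinase gene Tk1 3359.6 and 3422 against 18.3 to 459 (median 75.7). Pcna read 9517 and 8771 against 439 to 3179 (median 2195). The difference was smaller for the single-strand binding protein gene Rpa1 (1.28 ± 0.12, and 0.94 without Neutrophil in the mean), and the clamp loader genes Rfc1 (0.11 ± 0.14) and Rfc2 (0.58 ± 0.13) were not called. The mean log2 level of the replication list was 10.3 in Erythroblast, 9.64 in LinNeg, 9.23 in KSL, 8.77 in Monocyte and 6.68 to 8.20 in the other 6.

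**Figure D4:**
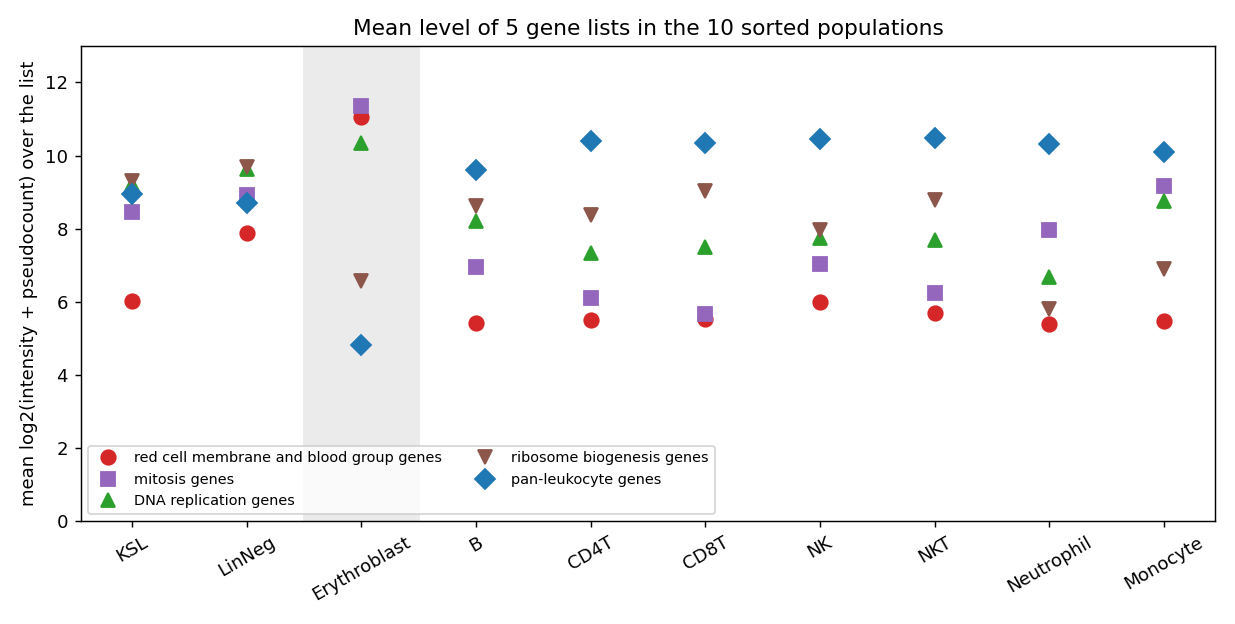
Mean log2(intensity + pseudocount) of 5 gene lists in each of the 10 sorted populations (mean of 2 arrays); a list's points are to be compared across populations, not with another list. Erythroblast (shaded) has the highest mitosis (11.4), replication (10.3) and membrane (11.04) means and the lowest pan-leukocyte mean (4.81), while its ribosome biogenesis mean (6.56) lies between those of Neutrophil (5.81) and Monocyte (6.89).

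The regulators of the cycle split. Of 28 tested, 17 (60.7%) were higher and 5 (17.9%) lower (median log2 difference 1.87), against 17.5% and 28.4% of all genes. The E-type cyclins of the start of replication were high, Ccne1 at 2366 and 3209.6 against 83.6 to 327 (median 148) and Ccne2 at 1946 and 2317 against 21.8 to 536 (median 49.3). E2f2 read 3178 and 2725 against 26.1 to 739.9 (median 246) and E2f8 5557 and 5255 against 2.04 to 1757 (median 66.1). Some inhibitors of cyclin-dependent kinases were high at the same time, with differences of 3.82 ± 0.17 for Cdkn2c, 2.39 ± 0.13 for Cdkn2d and 1.04 ± 0.15 for Cdkn1b. The difference of Cdkn1b was 0.95 without NKT in the mean and 0.99 without B. Values of the other listed inhibitors, Cdkn1a, Cdkn1c and Cdkn2a, are not given here. Rb1, the retinoblastoma gene, read 3642 and 3779.5 against 218 to 982 (median 591), while its relative Rbl2 was lower, at 41.2 and 54.2 against 101 to 494 (median 233). The D-type arm was lower in part: Ccnd2 read 47.8 and 29.7 against 34.1 to 4147 (median 2219.8), and its partner kinase gene Cdk6 28.1 and 54.8 against 131 to 577 (median 388), with a LinNeg mean of 2858. Ccnd3, a D-type cyclin gene, was called higher (1.58 ± 0.13) with overlap, and 1 of its other 2 probe sets was called lower, at 26.0 and 3.89 against 52.9 to 497. Myc read 4.99 and 11.7 against 4.39 to 531 (median 239.8) (-3.45 ± 0.25), with a LinNeg mean of 1127. Its antagonists Mxd3 and Mxi1 were higher, with differences of 4.33 ± 0.36 and 2.64 ± 0.18. Without the probe sets marked for several transcripts 3 regulators rather than 5 were called lower.

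Of 18 tested genes of chromatin condensation and the nuclear lamina, 11 (61.1%) were higher and 3 (16.7%) lower (median log2 difference 1.69). The shares of all genes were 17.5% and 28.4%. All 5 listed condensin genes were higher, Ncapd2 with 2992 and 2683 against 86.9 to 669.6 (median 146), and Ncapg, Ncaph, Smc2 and Smc4 with differences of 3.78 ± 0.31, 4.15 ± 0.21, 3.85 ± 0.26 and 1.69 ± 0.11. Lmna and Lmnb1 of the lamina had differences of 2.78 ± 0.31 and 1.69 ± 0.21. The histone deacetylase genes Hdac1, Hdac2 and Hdac3 were not called, while Hdac5 was lower (-1.23 ± 0.20), though not after quantile normalization (-0.80).

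The gene of the erythropoietin receptor was high, while the other genes of its signalling chain went both ways. Epor read 1709.6 and 1469.5 against 9.71 to 54.1 (median 27.5) (5.53 ± 0.30, adjusted p = 4.48e-12). Of the 15 tested members, 4 (26.7%) were higher and 7 (46.7%) lower, against 17.5% and 28.4% of all genes. The median log2 difference was 0.35 against -0.13 for all genes. The kinase gene Jak2, which the receptor uses, was not called, at 1001 and 1164 against 441 to 1217 (median 644). The signal carriers Stat5a and Stat5b were lower, Stat5b at 44.7 and 67.6 against 121 to 400.4 (median 208) and Stat5a (-1.32 ± 0.33) with overlap. Without replicate 1 of Erythroblast Stat5a was at -0.53, under the threshold. With the mean of all probe sets of a gene Stat5a was at -0.60 and Stat5b at -0.51, neither of them called. The 1 other probe set of Stat5b had a difference of the opposite sign. Negative regulators were lower too: Ptpn6, the phosphatase SHP-1, read 6.15 and 5.22 against 348 to 3414 (median 1886), Socs3 1.42 and 1.98 against 16.8 to 612 (median 250.2) and Sh2b3 24.2 and 24.3 against 149 to 1155 (median 476). Cish was not called (0.71 ± 0.19). Kit, the receptor of stem cell factor, read 2.62 and 10.9 in Erythroblast, 4.25 to 195 (median 38.7) in the 14 and 739 on average in LinNeg. With the mean of all probe sets of a gene, or without those marked for several transcripts, 4 members rather than 7 were called lower.

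Of the survival genes of the BCL2 family, Bcl2l1 was higher and Bcl2 lower. Bcl2l1, whose product BCL-XL is known to protect late erythroblasts, read 1558 and 938 against 97.2 to 252 (median 139) (3.07 ± 0.21). Bcl2 itself read 19.8 and 15.8 against 1.45 to 4022 (median 784) (-4.22 ± 0.34), and Mcl1 lay below all 14 arrays without reaching the threshold, at 2871 and 2577 against 3105 to 8268 (median 4877); it passed after quantile normalization (-1.27) and with the mean of its probe sets (-1.06). In all, 3 of 15 tested members were higher (Bcl2l1, Bik and Bcl2l13) and 6 lower, near the 17.5% and 28.4% of all genes. Bik was not called without replicate 1 of Erythroblast (1.40) or on probe sets not marked for several transcripts (0.89). Of the death-promoting members that were lower, Bid had a difference of -2.07 ± 0.20 and Bmf -2.09 ± 0.31. For Bad, also called lower, the Erythroblast arrays themselves differed, at 11.4 and 124, and without replicate 1 its difference of -1.59 became -0.17; on unmarked probe sets it was -0.30.

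The other direction was led by genes that nearly all leukocytes share. The 15 largest negative differences were those of Cd52, Limd2, Ptprc, Coro1a, Arhgdib, Laptm5, Cyba, Cotl1, Ighm, Vim, Elovl5, Cytip, Celf2, Tmsb4x and Tmsb10, from -9.53 to -7.25. Among 35 listed pan-leukocyte genes, all tested, 34 were lower and 0 higher, 29 of them below all 14 arrays, with a median log2 difference of -5.44. Cd52, a small surface glycoprotein gene, read 3.69 and 3.95 against 5629 to 11597 (median 7510.1) (-9.53 ± 0.13). Ptprc had a difference of -9.34 ± 0.10 (adjusted p = 8.39e-22). Cyba, the gene of a subunit of the NADPH oxidase, read 1.20 and 1.13 against 1401 to 9184 (median 2711). Laptm5 read 1.21 and 8.32 against 4158 to 6389.99 (median 4975) on the probe set used; 1 of its 4 other probe sets was called higher, at 357 and 537 against 17.7 to 153. The probe set used for the immunoglobulin heavy chain gene Ighm, marked for several transcripts, read 2.42 and 2.29 against 654 to 9754 (median 2425). Its signal was high in all 14 arrays and not only in B. Of the 7 other probe sets of Ighm, 5 had a difference of the opposite sign, and 0 were called in that direction. Without marked probe sets the difference of Ighm was -0.19 and it was not called. Of the transcription factors, Fli1 had a difference of -5.73 ± 0.20. Ikzf1, the gene of Ikaros, kept 939.9 and 955 against 1577 to 2594 (median 2107) (-1.11 ± 0.10). With the mean of its probe sets Ikzf1 was at -0.74 and not called. Runx1 was the member not called in the main comparison (-0.85 ± 0.19), and it was at -1.10 without replicate 1 of Erythroblast. Without marked probe sets 1 member of the list was called higher. In LinNeg the list had a mean log2 level of 8.70, against 4.81 in Erythroblast and 9.61 to 10.5 in the 7 populations.

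The actin cytoskeleton was lower in 16 of 23 tested genes and higher in 0, and all 16 lay below the 14 arrays (median log2 difference -2.55). The actins themselves differed. Actb read 10409 and 7753 against 6556 to 11943 (median 9642) and was not called (-0.06 ± 0.13), while Actg1 read 1149.9 and 1824 against 6289 to 12656 (median 8385) (-2.55 ± 0.13). Tmsb4x, whose small product holds actin monomers, read 60.7 and 57.97 against 7630.3 to 13889 (median 10026) (-7.25 ± 0.15). Its relative Tmsb10 read 31.5 and 63.1 against 4488 to 12626 (median 8417); of its 4 other probe sets 1 was called higher, at 39.0 and 53.2 against 3.80 to 35.9. Vim, the intermediate filament gene vimentin, read 3.12 and 4.49 against 1672 to 4922 (median 2598). The crosslinker gene Flna read 34.3 and 34.5 against 526 to 3405 (median 675) and the membrane linker Msn 58.9 and 152 against 1236 to 2459 (median 1819). Arpc2 and Arpc5 of the actin nucleating complex had differences of -3.33 ± 0.10 and -1.42 ± 0.10. The relatives of Msn, Ezr (-0.48 ± 0.15) and Rdx (-0.26 ± 0.17), were not called. Without the probe sets marked for several transcripts 2 members were called higher, and 1 was without replicate 1 of Erythroblast or without Monocyte or Neutrophil in the mean.

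Adhesion molecules and chemokine receptors were lower in 20 of 25 tested genes and higher in 1. Only 5 of the 20 lay below all 14 arrays. Itga4, whose product holds erythroblasts to marrow macrophages, was the one that was higher, at 1831 and 1526 against 168 to 1549 (median 719) with overlap; it was not called after quantile normalization (0.97). Without replicate 2 of Erythroblast 2 members were called higher. Cd44 read 58.3 and 94.8 against 466 to 3954 (median 1240.5), Itga6 1.39 and 3.01 against 85.2 to 832 (median 229) and Icam2 3.18 and 2.86 against 84.7 to 1106 (median 566). Cxcr4, the receptor that keeps cells in marrow, was not called (-0.10 ± 0.13). Under the test against a difference of 1, 11 members were lower.

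Antigen presentation by MHC class I was lower at most steps, in 10 of 14 tested genes with 1 higher, all 10 below the 14 arrays (median log2 difference -1.79). The heavy chain genes remained bright: H2-K1 read 1956 and 2171 against 5057 to 7989 (median 6673) and H2-D1 2969 and 2503 against 5582 to 9617 (median 7079). The light chain gene B2m read 4299 and 4500.1 against 5004 to 7876 (median 6369.7) and stayed under the threshold (-0.49 ± 0.09). The genes of the immunoproteasome, which cuts the peptides, had far larger differences. Psmb8 read 10.8 and 3.60 against 345 to 1725 (median 1197) (-6.20 ± 0.16), Psmb10 had -5.07 ± 0.20 and Psmb9 -3.58 ± 0.13. The peptide transporter genes Tap1 and Tap2 had -2.30 ± 0.15 and -2.02 ± 0.14; over all its probe sets Tap1 was at -0.28 and not called. The chaperone gene Calr was higher (1.11 ± 0.13) with overlap, and without replicate 1 of Erythroblast (0.98), without Monocyte in the mean (0.99), without Neutrophil in it (0.91) or after quantile normalization (0.72) it was not called.

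In NF-kB and Toll-like receptor signalling 14 of 19 tested genes were lower and 0 higher (median log2 difference -2.59). Only 9 of these genes lay below all 14 arrays. The inhibitor gene Nfkbie read 0.563 and 0.603 against 213 to 1455 (median 373), Nfkbia 752 and 1550.2 against 5385 to 8605 (median 7371) and Birc3 12.2 and 10.8 against 847 to 3668 (median 1308). Relb, a subunit of the factor, had a difference of -2.71 ± 0.33. Rela, its main subunit, lay below the 14 arrays without reaching the threshold (-0.82 ± 0.12), and Tlr4 was not called (-0.26 ± 0.22).

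Interferon response genes went both ways. Of 22 tested, 7 (31.8%) were higher and 9 (40.9%) lower, against 17.5% and 28.4% of all genes. The median log2 difference was 0.44, against -0.13 for all genes. Rsad2, the gene of the antiviral protein viperin, read 12641 and 8583 against 99.5 to 2565 (median 383) (4.52 ± 0.25). Isg20, an exonuclease gene, read 7171 and 5214 against 91.1 to 501 (median 215). Irf7, Ifit1, Ifih1, Oasl2 and Usp18 were also higher, with differences of 1.94 ± 0.23, 2.03 ± 0.27, 1.83 ± 0.19, 2.11 ± 0.30 and 1.65 ± 0.28. Others of the same response were lower. Irf1 read 73.9 and 66.1 against 751 to 1949 (median 1279), Ifit3 3.43 and 2.62 against 66.1 to 352 (median 180.5), Bst2 8.52 and 6.28 against 27.8 to 149 (median 86.5) and the receptor gene Ifngr1 23.8 and 32.7 against 147 to 912 (median 525). The 2 Erythroblast arrays were apart for Ifit1 (927 and 429) and Oas1a (1239 and 504), and Oas1a was called higher without replicate 2 (1.21). Without the probe sets marked for several transcripts 4 members rather than 7 were called higher.

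At several steps of sugar metabolism, isoenzymes went in opposite directions. Of 20 tested genes of glycolysis and glucose transport, 5 (25%) were higher and 11 (55%) lower (median log2 difference -1.93). The shares of all genes were 17.5% and 28.4%. Hexokinase genes split, with Hk1 at 2528 and 2265 against 211 to 729 (median 494) and Hk2 at 16.3 and 3.39 against 46.6 to 1262 (median 154). So did phosphofructokinase: Pfkm read 480.04 and 388 against 34.4 to 123 (median 81.9) and Pfkp 7.47 and 8.28 against 194 to 1149 (median 594), although 1 of the 2 other probe sets of Pfkp was called higher, at 56.3 and 27.8 against 1.97 to 35.0. Pkm, the general pyruvate kinase, read 14.9 and 13.3 against 458 to 4826 (median 892), and Pklr, the red cell and liver form, 81.96 and 117 against 24.9 to 65.8 (median 44.2) (1.05 ± 0.28). Pklr was not called without replicate 2 of Erythroblast (0.81), without replicate 1 of NK (0.998) or without NK or Neutrophil in the mean (0.99 each). Aldoa read 84.8 and 49.9 against 1447 to 6566 (median 1822) and Ldha 62.5 and 123 against 1527 to 4889 (median 2907). Among transporters the glucose carrier genes Slc2a1 and Slc2a3 had differences of -4.94 ± 0.17 and -3.19 ± 0.12, the second on a probe set marked for several transcripts (0.082 on the others). The lactate and pyruvate carrier gene Slc16a1 read 4902 and 4612 against 0.913 to 365 (median 66.6) (6.22 ± 0.27). Without the probe sets marked for several transcripts 6 members rather than 11 were called lower.

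Lysosome genes were lower in 15 of 23 tested members and higher in 2 (median log2 difference -1.86). The protease gene Ctss read 22.8 and 6.98 against 640.1 to 6543 (median 2113), Ctsc 29.3 and 1.29 against 371 to 3458 (median 1396) and Asah1, an acid ceramidase gene, 14.01 and 5.37 against 169 to 1924 (median 604). Ctsb and Laptm4a were the 2 that were higher, Ctsb at 8017 and 6499 against 675 to 5628 (median 1691). The membrane protein gene Lamp1 was not called (-0.21 ± 0.11).

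Genes of ribosomal proteins and of respiration were closer to those of the other cells, while ribosome biogenesis genes were mostly lower. Of 41 tested cytosolic ribosomal protein genes 0 were higher and 9 (22.0%) lower, against 28.4% of all genes, with a median log2 difference of -0.25. Of 75 listed, 42 had a probe set with their symbol alone. Rpl37, one of the 9, read 85.4 and 68.9 against 202 to 1137 (median 644), and Rps29, not called, 12383 and 10431 against 8388 to 16582 (median 11099). Without the probe sets marked for several transcripts 5 were called lower and 1 higher. Ribosome biogenesis genes were lower in 18 of 26 and higher in 1 (median -1.28), but only 3 lay below all 14 arrays, and after quantile normalization 14 were lower and 0 higher. Their lowest arrays were often below Erythroblast: the nucleolar gene Npm1 read 546 and 899 against 190.2 to 7552 (median 4074) and the nucleolar RNA methylase gene Fbl 117 and 319 against 46.7 to 2037 (median 985). Pes1 read 24.5 and 15.5 against 49.9 to 563 (median 328), with no overlap. Ubtf, a factor of ribosomal RNA transcription, was the one that was higher (1.105), though not after quantile normalization (0.83). Oxidative phosphorylation subunits were mostly not called, with 4 of 41 higher and 5 lower and a median of 0.09. Atp5b (1.48 ± 0.11) was the most raised of them and Ndufb5 (-2.61 ± 0.13) the lowest. Their median was -0.09 after quantile normalization. The count higher was 7 after array median centring, 2 after quantile normalization and 7 without CD8T in the mean, and the count lower was 3 without replicate 1 of Erythroblast.

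Polycomb and DNA methylation genes went both ways. Of 23 tested Polycomb genes 5 were higher and 6 lower, close to the 17.5% and 28.4% of all genes, and the median of -0.23 was 0.02 after quantile normalization. The methyltransferase arm held genes that were higher, with Ezh2 at 2489 and 2641 against 98.8 to 783 (median 344) and Suz12 at 1578 and 1848 against 297 to 901 (median 495). The ubiquitin ligase arm was split. Bmi1 was lower at 21.7 and 30.2 against 41.7 to 497 (median 424). Rnf2 was lower at 119 and 167 against 398 to 784 (median 713), but the mean of all its probe sets gave -0.73 and no call. Pcgf5, of the same arm, was higher (2.18 ± 0.14) on 2 of its 3 probe sets. On the third it was lower, at 1.83 and 14.8 against 2.43 to 181. Of 11 tested DNA methylation genes 4 (36.4%) were higher and 5 (45.5%) lower, against the same 17.5% and 28.4%. Dnmt1, which copies methylation at replication, read 3756 and 3215 against 412 to 1476 (median 893), and its partner Uhrf1 778 and 875 against 15.4 to 208 (median 51.9). The de novo enzymes were lower, with differences of -3.29 ± 0.24 for Dnmt3a and -3.05 ± 0.22 for Dnmt3b. Tet2, which oxidises the mark, read 1.97 and 7.54 against 213 to 592 (median 252). Gadd45a, linked to loss of the mark, was called higher (3.52 ± 0.35) with overlap.

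The mean of 7 populations hides that single populations came near Erythroblast for some genes. Neutrophil was the nearest for Nfe2, with a mean intensity of 3126 and a log2 difference of 0.64 that was not called, and for Kmt5a, a histone methylase gene (1222; 0.15). Nor was the difference from Neutrophil called for Ccnd3 (1903; -0.07), Gadd45a (459.99; 0.08) or Myc (11.3; -0.18), while Neutrophil was above Erythroblast for Gsr (1024; -2.71). For Slc40a1 the Neutrophil mean was 3279, and the difference of -1.29 was not called. Among ribosome biogenesis genes Neutrophil was lower than Erythroblast for Npm1 (1.59) and Fbl (1.76), while both genes were brightest in CD8T (-3.31 and -3.28). Monocyte was the nearest for dividing-cell genes, with differences of 1.42 for Mki67, 1.78 for Rrm2 and 1.95 for E2f8, all of which were called. In CD8T, the farthest, the same genes differed by 6.66, 6.38 and 8.31. B was above Erythroblast for Bcl11a (975; -2.63), and NK was far above it for Hfe (2663; -6.52) and not called against it for Itga4 (1523; 0.13). These comparisons share the Erythroblast arrays, and the populations named for a gene were picked by their values.

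The 2 Erythroblast arrays differed from each other in a smaller set of genes. In 973 of the 14044 genes replicate 1 was higher by over 1 on the log2 scale and in 923 replicate 2 was. The base excision repair gene Apex1 read 124 and 983, the RNA editing gene Adarb1 4.58 and 188 and the serine racemase gene Srr 22.0 and 333; these genes were chosen after their values were seen. Of the lists, membrane genes read higher in replicate 1 in 21 of 26 tested members and maturation genes in 17 of 20. DNA replication genes read higher in replicate 1 in 9 of 37. The share of all genes that read higher in replicate 1 was not counted, so these counts have no baseline. The mean log2 level was 11.2 and 10.9 for the membrane list and 10.2 and 10.4 for the replication list, differences far smaller than those from the 14 arrays.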

How the data were processed

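Each of the 20 arrays (Affymetrix Mouse Genome 430 2.0) measured 1 sorted population, from total RNA labelled after 2 cycles of amplification from about 3000 cells, per the labels' protocols; that labelling favours 3′ ends. The deposited values are intensities per probe set, scaled by the authors so that the mean of each array without 2% at each end is 100, as the values themselves show; the software behind them is not named in any label or header. Intensities were used as deposited, as log2(intensity + 6.75), the pseudocount being the 25th percentile. The log2 values were computed here from the deposited intensities.

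Of 45101 probe sets, 34945 carry 1 gene symbol in GEO's platform annotation, 932 several and 9160 none, and 64 are controls. The brightest probe set on average stood for a gene. A gene was tested where a population mean exceeded 4.89 on the log2 scale, the median, which left 14044 genes of 18193. Without the KSL and LinNeg arrays in the filter and the fit, 13799 genes were tested and 6440 called. All 10 populations entered limma 3.58.1 (lmFit and eBayes with trend, R 4.3.3), with 10 residual and 8.46 prior degrees of freedom. The contrast was Erythroblast minus the equally weighted mean of 7 populations. Every adjusted p in the text is limma's two-sided p after Benjamini-Hochberg adjustment over all genes tested. The script was tested on simulated data. Genes named are the 15 called genes with the largest differences each way that separate both arrays from the 14, members of 26 pathway and 12 marker lists, genes of sort markers, and probe sets that disagree. The members and lists were chosen with earlier results of these data known. Alternatives covered the scaling, the pseudocount, the filter, the choice of probe set, treat, a replicate block and leaving out each array or population. Replicate numbers did not pair arrays. Promoters came from RefSeq windows matched by symbol. Figures were drawn with Python 3.11.15 and matplotlib 3.10.9.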

Additional observations from a re-analysis of the deposited data

Results flagged for a closer look

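Probe sets without a single gene symbol entered no comparison of the report, and some of them carried signal in Erythroblast above every other mature array. They were called in a second limma fit with the same settings, in which every probe set stood for itself. The thresholds were again an adjusted p under 0.05 and a log2 difference of at least 1. Of 5363 probe sets with no symbol that passed the filter, 707 were called higher and 1219 lower. In 518 of the 707 both Erythroblast arrays lay above the 14 others. Those 518 are 9.66% of the probe sets tested, under the 14.7% among genes, for which only the brightest probe set was read. Of 702 probe sets with several symbols, 122 were called higher and 183 lower, and 102 (14.5%) were above all 14 arrays, close to the share among genes. The largest log2 difference without a symbol, 9.25, was that of 1425643_at, with 6529.8 and 4949 in Erythroblast (mean 5739.6) and at most 6.46 in the other 14 arrays. The probe set 1421277_at read 3999 and 2559 against at most 2.61, and 1418493_a_at read 6692 and 4876 against at most 49.4. Among those with several symbols, 1417714_x_at read 10979.5 and 7772 (mean 9376) against at most 670 and 1436168_at read 1908 and 1673 against at most 51.8. The probe sets with several symbols have them in the platform annotation, but none was assigned to a single gene here. What the probe sets with no symbol measure was not tested.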

How the results depend on the processing

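The count of genes called ran from 5199 (pseudocount at the 50th percentile) to 6659 (quantile normalization) over scaling, pseudocount, filter and probe set choices, and stayed within 1.5 times the main count. Quantile normalization shifted the median of all genes by 0.16 and array median centring by 0.12, and the share of calls that were higher was 38.1% as deposited, 46.3% after the first and 43.0% after the second. Tested against a log2 difference of 1 (treat), 4026 genes were called against the mean, 1361 of them higher and 1288 higher and above all 14 arrays. By the same test 3651 were called against B, 3815 against CD4T, 3817 against CD8T, 3907 against NK, 3892 against NKT, 3811 against Neutrophil and 3288 against Monocyte.

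Leaving out 1 array at a time gave 6133 to 6486 genes called against the mean (2317 to 2500 higher, 3816 to 4025 lower, 2048 to 2348 above and 2357 to 2818 below the other arrays left). Against single populations the ranges were 5839 to 6318 for B, 6059 to 6465 for CD4T, 6057 to 6461 for CD8T, 6000 to 6642 for NK, 6126 to 6516 for NKT, 5954 to 6273 for Neutrophil and 5458 to 5806 for Monocyte. Leaving out 1 population gave 6378 to 6547.

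The replicate numbers are names. Deviations of same-numbered arrays correlated at -0.09 to 0.21 over 45 pairs of populations (median 0.0064), with 1 pair over 0.1. With the replicate block 6453 genes were called, 6450 of them also called without it.

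Directions that reversed belonged to single genes. Without probe sets marked for several transcripts the difference was 2.47 for Laptm5, 1.09 for Tmsb10, -1.51 for Hbb-b2, -0.59 for Bcl11a, -0.83 for Cd8a and 0.082 for Slc2a3, since another probe set is then read. Hbb-b2 was at -2.40 with the pseudocount at the 5th percentile, and with the mean of a gene's probe sets Ccnd3 was at -0.15 and Cd8a at -0.56. Adarb1 ranged from -0.25 to 3.85 leaving out either Erythroblast array. A count of list members called was taken as moved when it changed by over 1.5 times, or to or from 0. That held in 25 of 1216 comparisons leaving out 1 array and in 13 of 532 leaving out 1 population. Under the other alternatives it held in 64 of 912, and the cause was not tested. With 2 arrays a population the standard errors rest on a spread pooled over populations.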

Other observations

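Gene families were also gathered by symbol after the lists above were read; of all genes tested 17.5% were higher and 28.4% lower. Of 11 carbonic anhydrase genes 7 were higher and 0 lower, but only 3 of the 7 lay above all 14 arrays. Of 31 kinesin genes, the motors of microtubules, 13 were higher and 8 lower; the 13 lay above all 14 arrays, and Kif21b was lower (-3.25 ± 0.17). Of 27 E2 ubiquitin-conjugating enzyme genes 11 were higher and 5 lower, with Ube2e1 the reverse of Ube2c at 12.5 and 25.3 against 511 to 1387 (median 997). Of 12 tubulin genes 5 were higher and 1 lower: Tubb2a read 1609 and 1705 against 26.2 to 264 (median 94.1), and Tuba1a 121 and 147 against 1357 to 3024 (median 2063).

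Interleukin receptor genes were lower in 15 of 29 and higher in 2. Protein tyrosine phosphatase genes were lower in 9 of 30, near the share of all genes, and higher in 1. Zinc finger genes named Zfp were lower in 117 of 291 and higher in 22 (median -0.65). Of these Zfp36, whose product speeds the decay of cytokine messages, read 3.55 and 2.50 against 193 to 2569.5 (median 456), and Zfp36l2 had a difference of -5.05 ± 0.32. Transporters of the ATP-binding cassette family split evenly, 9 higher and 9 lower of 39. The porphyrin and drug exporter gene Abcg2 read 4988 and 4216 against 11.4 to 237 (median 71.6) and the phospholipid transporter gene Abcb4 3330.1 and 2577 against 48.6 to 127 (median 77.8). The cholesterol exporters went the other way, with Abcg1 at 10.98 and 4.85 against 349 to 1067 (median 668) and Abca1 at 17.8 and 4.57 against 49.9 to 901 (median 318). Other families lay nearer the shares of all genes or were small. Solute carrier genes were higher in 60 and lower in 72 of 255 (23.5% and 28.2%), glutathione S-transferase genes in 5 and 2 of 14, Rab GTPase genes in 11 and 16 of 54 (20.4% and 29.6%), ubiquitin-specific protease genes in 11 and 10 of 43 and tripartite motif genes in 12 and 11 of 45. These counts describe the families and were not tested as sets.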
